A study of Mus musculus with 6 samples.

Results

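The genes described here are 9 core genes of the Hedgehog pathway, Shh, Ptch1, Smo, Gli1, Gli2, Gli3, Hhip, Boc and Cdon, in the spinal cord of adult mice with and without the transcription factor SOX2 in astrocytes. They were chosen by name, with earlier results of these data known, and each matched 1 of the 35275 Ensembl gene rows of the deposited tables. Bulk poly(A) RNA-seq was made from the whole spinal cord of 3 Sox2 cKO and 3 Ctrl mice on the C57BL/6 background. Sox2 cKO mice carried mGfap-Cre and the floxed allele on both chromosomes (mGfap-Cre:Sox2fl/fl), and the labels give the Ctrl genotype as mGfap-Cre:Sox2+/+, which shares the Cre. The design text gives mGfap-Cre or Sox2fl/fl for Ctrl, and the methods of the study give Sox2fl/fl littermates, so whether Ctrl mice carried Cre is not settled. The age is P90 in the labels and P80 in the protocol. Cre was driven by the mouse Gfap promoter, so the deletion was aimed at astrocytes and other cells that had used this promoter. By staining of younger Sox2 cKO mice, the study reports SOX2 lost from most astrocytes and unchanged in oligodendroglial cells and neurons. The RNA came from all cells of the tissue. The deposited columns carry numbers and not sample names. Libraries 2, 4 and 6 are Ctrl and libraries 1, 3 and 5 are Sox2 cKO, and each library is called by that number. Where a sentence gives 3 values for a group, those of Ctrl are in the order 2, 4, 6 and those of Sox2 cKO in the order 1, 3, 5.

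Hedgehog signaling starts when a secreted ligand, such as Sonic hedgehog (Shh), binds Patched 1 (Ptch1) on the receiving cell. Ptch1 without ligand keeps the transducer Smoothened (Smo) inactive, and ligand binding lifts this block at the primary cilium. The GLI transcription factors then act on target genes, with Gli1 and Gli2 mainly as activators and Gli3 largely as a repressor when the pathway is off. Gli1, Ptch1 and Hhip are themselves target genes, and Ptch1 and Hhip restrain the signal by holding the ligand. The pathway patterns the ventral spinal cord of the embryo. In the adult CNS, neurons are a source of Shh, and a population of astrocytes is among the cells that transcribe Gli1.

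The libraries held 21507911 to 28392184 counts on genes, and all 9 Hedgehog genes passed the filter on low counts that left 16137 genes for the test. A gene was called when the adjusted p of edgeR's quasi-likelihood test, over all genes tested, was below 0.05. Ctrl library 2 stood apart from the other Ctrl libraries. The median absolute difference in log2 CPM (counts scaled to library size after TMM normalization) between it and Ctrl libraries 4 and 6 was 0.19 and 0.20, whereas it was 0.15 and 0.14 to Sox2 cKO libraries 3 and 5, and 0.22 to Sox2 cKO library 1. The called genes and the ratios are also given without Ctrl library 2. Fold changes followed gene length, with a Spearman's rho of -0.48 over all genes tested, and results are also given after a correction that removes this trend from every library. The design text gives 3 mice for each group, so the spread is taken as that between mice. The methods of the study give both sexes in each group, and sex was not part of the test. In whole tissue, fewer cells of a type and less RNA per cell cannot be told apart.

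Sox2, the deleted gene, was measured first. Its level was 19.9, 14.8 and 29.5 CPM in Ctrl, against 3.16, 2.69 and 2.98 CPM in Sox2 cKO. The groups were far apart and did not overlap. The log2 fold change was -2.86 (SE 0.24, adjusted p = 0.00096, edgeR). Without Ctrl library 2 it was -2.91.

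SOX2 binding near these genes was listed by the study from chromatin immunoprecipitation of adult cerebral cortex, another tissue, and its signal was not analysed here. Of the 1059 listed peaks, 5 had a Hedgehog gene as nearest gene, and they belonged to 4 of the 9 genes, Gli2, Gli3, Ptch1 and Cdon. The motif site that the study assigned to each peak is shown because SOX2, the factor it was assigned to, is the one deleted here. All 5 sites read 5′ to 3′ on the minus strand of mm10, with the 11 bases of the site in capitals and the flanks in lower case. Both Gli3 sites lie in introns of Gli3, at chr13:15544062-15544086 and chr13:15556935-15556963, which is 80841 and 93714 bases from the gene start.
Gli3 first site: cacccCACACAAAGGCtggagccca
Gli3 second site: agagcattcTTAACAAAGGGgagaaacag
The Ptch1 site, chr13:63515092-63515120, lies 58492 bases from the gene start, in the annotated UTR of a transcript subject to nonsense-mediated decay and in no exon of another Ptch1 transcript.
Ptch1 site: ctaaattgtTCAACAAAAGAttggcctgc
The Gli2 site, chr1:119034067-119034095, is intronic, 19538 bases from the gene start.
Gli2 site: gttgtcatgGGGAGAAAGGGgaaagagga
The Cdon site, chr9:35402818-35402846, is outside the gene, at -18296 bases from its start.
Cdon site: attattgctTAATTAAAGAAcagcaatca
The letters CAAAG, the core of the SOX motif, stand in both Gli3 sites and in none of the other 3. Of the 1046 sites in the list, 35.2% hold CAAAG on either strand. No peak of that list had Shh, Smo, Gli1, Hhip or Boc as nearest gene, and the list holds only the sites of highest enrichment.

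Of the 9 genes, 5 were called in Sox2 cKO spinal cord. Ptch1, Hhip and Gli3 were lower (3 of 9, where 12.4% of all genes tested were called lower), and Shh and Gli1 were higher (2 of 9, where 12.2% were called higher). Smo, Gli2, Boc and Cdon were not called. With the length correction, Ptch1 and Hhip stayed called lower (2 of 9, where 6.99% of all genes were) and Shh stayed called higher (1 of 9, where 6.08% were), while Gli1 and Gli3 missed the threshold. The median log2 fold change of the 9 genes was 0.01, beside 0.02 over all genes tested, with 4 of the 9 below 0 and 5 above it. At the shares of 12.4% and 12.2%, without the length correction, about 1 of 9 genes would be called in each direction.

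**Figure D1:**
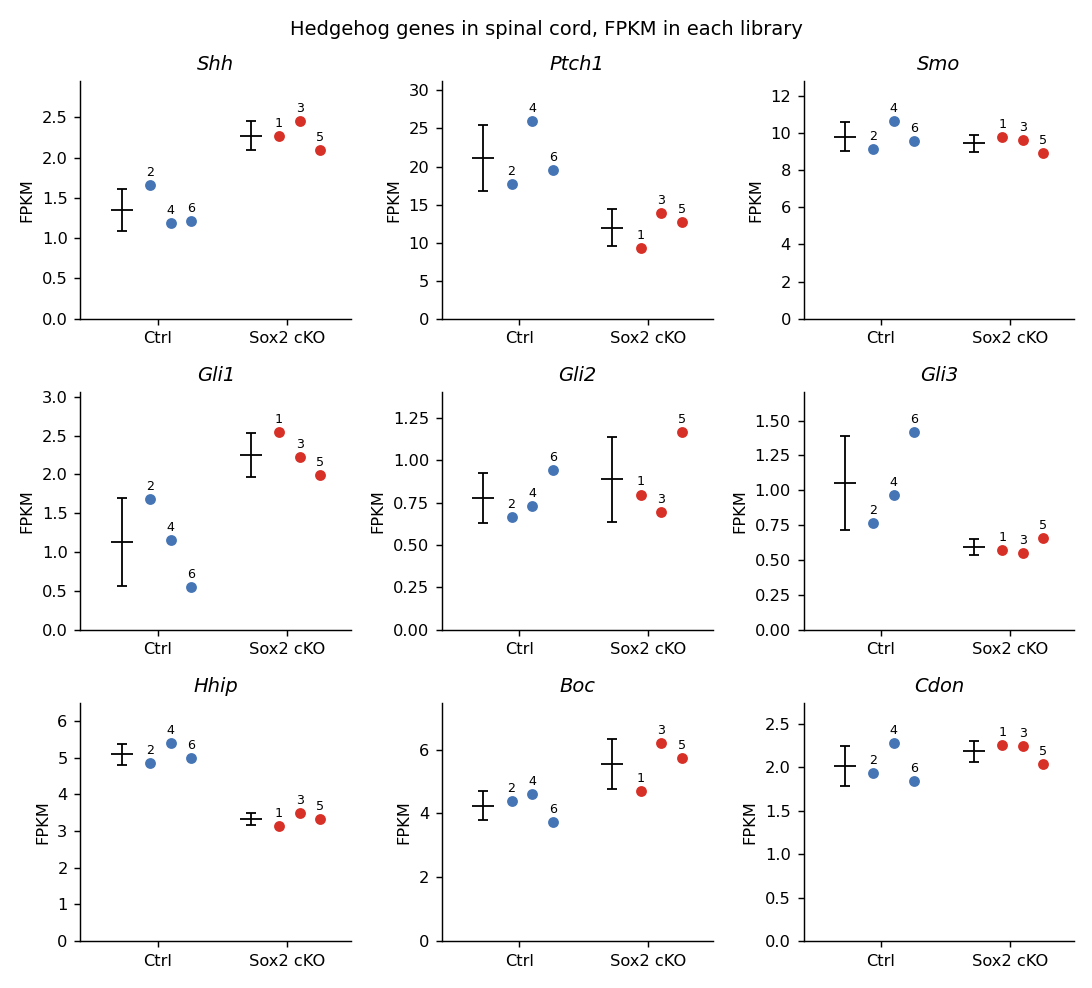
FPKM of each Hedgehog gene (vertical axis, from 0) in the Ctrl libraries (blue) and Sox2 cKO libraries (red), with the library number above each point and the mean ± SD of the 3 libraries in black. Ptch1, Hhip and Gli3 lie lower, and Shh and Gli1 higher, in every Sox2 cKO library than in any Ctrl library. Boc, which was not called, also lies higher in every Sox2 cKO library on this scale.

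Shh, the ligand, is encoded by ENSMUSG00000002633 on the minus strand of chromosome 5 (mm10, 28456815 to 28467256). Its level was 1.66, 1.19 and 1.22 FPKM (counts scaled to gene length and to the total count of the library) in Ctrl, against 2.26, 2.46 and 2.10 FPKM in Sox2 cKO. The groups did not overlap, and the highest Ctrl value was that of library 2. The mean rose from 1.35 ± 0.262 to 2.27 ± 0.180 FPKM (SD, n = 3 each), with a log2 fold change of 0.65 (SE 0.17, adjusted p = 0.024, edgeR). These are low counts, 72 to 100 reads in Ctrl and 131 to 188 in Sox2 cKO libraries. Without Ctrl library 2 the log2 fold change was 0.80 (adjusted p = 0.0062, edgeR), and with the length correction it was 0.58 (adjusted p = 0.043, edgeR). A pair of antisense genes, 9530036O11Rik and Gm26894, overlap exons of Shh. They held 11 to 40 and 15 to 40 counts, and strand use in the counting is not given in the sources used here. Neither was called, with log2 fold changes of 0.29 and 0.43 (adjusted p = 0.60 and 0.33, edgeR). The other ligand genes, Ihh (Indian hedgehog) and Dhh (Desert hedgehog), were near the floor of detection at 5 to 20 and 9 to 25 counts per library, and their difference between groups was not detectable at this depth.

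Ptch1, the receptor and a target of the pathway, was the most abundant of the 9 genes by FPKM (ENSMUSG00000021466, chromosome 13, minus strand, 63508328 to 63573598). It stood at 17.7, 26.0 and 19.6 FPKM in Ctrl, against 9.24, 13.9 and 12.7 FPKM in Sox2 cKO. No Sox2 cKO library reached the lowest Ctrl library. The mean was 21.1 ± 4.38 FPKM in Ctrl and 11.9 ± 2.42 FPKM in Sox2 cKO (SD, n = 3 each). The log2 fold change was -0.92 (SE 0.18, adjusted p = 0.013, edgeR), or 0.530 of the Ctrl level. It was -1.05 without Ctrl library 2 (adjusted p = 0.0017, edgeR) and -0.83 with the length correction (adjusted p = 0.020, edgeR).

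Hhip, a membrane protein that binds the ligand and limits its reach, is likewise a pathway target (ENSMUSG00000064325, chromosome 8, minus strand, 79965851 to 80058006). Its values were the tightest of the called genes. They were 4.87, 5.41 and 5.004 FPKM in Ctrl, against 3.15, 3.48 and 3.34 FPKM in Sox2 cKO. The gap between the groups was wider than the range of either group. The mean fell from 5.10 ± 0.28 to 3.32 ± 0.169 FPKM (SD, n = 3 each), with a log2 fold change of -0.71 (SE 0.10, adjusted p = 0.011, edgeR). It was -0.77 without Ctrl library 2 and -0.61 with the length correction, with adjusted p = 0.00062 and 0.014 in edgeR.

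Smo, the transducer that Ptch1 holds back, was second in abundance (ENSMUSG00000001761, chromosome 6, plus strand, 29735503 to 29761365). It was measured at 9.14, 10.7 and 9.61 FPKM in Ctrl, against 9.82, 9.63 and 8.93 FPKM in Sox2 cKO. The groups overlapped in part, with Ctrl library 4 above and Sox2 cKO library 5 below all libraries of the other group. Its log2 fold change of -0.15 had a 95% interval of -0.36 to 0.05 (adjusted p = 0.24, edgeR). A fall as large as that of Ptch1 or Hhip lies outside this interval.

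Boc and Cdon are related co-receptors that bind Shh and help to present it to Ptch1. Boc (ENSMUSG00000022687, chromosome 16, minus strand, 44485049 to 44558897) stood at 4.39, 4.61 and 3.73 FPKM in Ctrl, against 4.70, 6.21 and 5.75 FPKM in Sox2 cKO. On the FPKM scale its groups just failed to overlap, whereas on the CPM scale they overlapped. The log2 fold change was 0.29, with a 95% interval of 0.01 to 0.58 before adjustment, and it was not called (adjusted p = 0.11, edgeR). The length correction gave 0.39 (adjusted p = 0.054, edgeR), and the same correction without Ctrl library 2 gave 0.41 (adjusted p = 0.048, edgeR). Cdon (ENSMUSG00000038119, chromosome 9, plus strand, 35421128 to 35507652) stood at 1.93, 2.28 and 1.85 FPKM in Ctrl, against 2.26, 2.25 and 2.04 FPKM in Sox2 cKO. The groups overlapped, and the log2 fold change of 0.01 had a 95% interval of -0.24 to 0.26. Cdon is a long gene, at the 94.2nd percentile of length among genes tested, and with the length correction its log2 fold change was 0.30 (adjusted p = 0.085, edgeR).

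Gli1, the activator whose transcription is the usual readout of the pathway, was higher in Sox2 cKO spinal cord (ENSMUSG00000025407, chromosome 10, minus strand, 127329882 to 127341974). Its level was 1.69, 1.16 and 0.546 FPKM in Ctrl, against 2.55, 2.22 and 1.99 FPKM in Sox2 cKO. The groups did not overlap, but the Ctrl libraries differed among themselves by more than the distance from Ctrl library 2 to Sox2 cKO library 5. In counts, Ctrl libraries 2, 4 and 6 held 139, 106 and 44 reads and Sox2 cKO libraries 1, 3 and 5 held 201, 231 and 191. The log2 fold change was 0.90 (SE 0.29, adjusted p = 0.048, edgeR), which is just inside the threshold. Without Ctrl library 2 it was 1.27 (adjusted p = 0.0060, edgeR). Without Ctrl library 6, the lowest, it was 0.59 (adjusted p = 0.076), and with the length correction it was 0.93 (adjusted p = 0.062). The 3′ end of Gli1 overlaps the neighbouring gene Arhgap9 on the opposite strand by 62 bases. Arhgap9 held 52 to 65 counts in Ctrl and 78 to 95 in Sox2 cKO libraries, with a log2 fold change of 0.37 (adjusted p = 0.19, edgeR).

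Gli2, the main activator before Gli1 is made (ENSMUSG00000048402, chromosome 1, minus strand, 118834132 to 119053619), stood at 0.665, 0.729 and 0.946 FPKM in Ctrl libraries 2, 4 and 6. In Sox2 cKO libraries 1, 3 and 5 it stood at 0.799, 0.695 and 1.17 FPKM. The groups overlapped, and the log2 fold change of 0.09 had a 95% interval of -0.42 to 0.60 (adjusted p = 0.80, edgeR).

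Gli3, the repressor, was lower in Sox2 cKO spinal cord (ENSMUSG00000021318, chromosome 13, plus strand, 15463235 to 15730026). It stood at 0.764, 0.969 and 1.42 FPKM in Ctrl, against 0.569, 0.552 and 0.660 FPKM in Sox2 cKO. Sox2 cKO values were close to each other, and Ctrl values ranged widely from a lowest value in library 2 to a highest in library 6. The mean fell from 1.05 ± 0.336 to 0.594 ± 0.0579 FPKM (SD, n = 3 each), with a log2 fold change of -0.93 (SE 0.23, adjusted p = 0.021, edgeR). Without Ctrl library 2 it was -1.13 (adjusted p = 0.0025, edgeR). Its gene length of 8170 bases is at the 95.8th percentile of genes tested, and the length correction brought the log2 fold change to -0.60 (adjusted p = 0.074, edgeR). The fall without Ctrl library 6 was -0.63 (adjusted p = 0.062, edgeR).

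**Figure D2:**
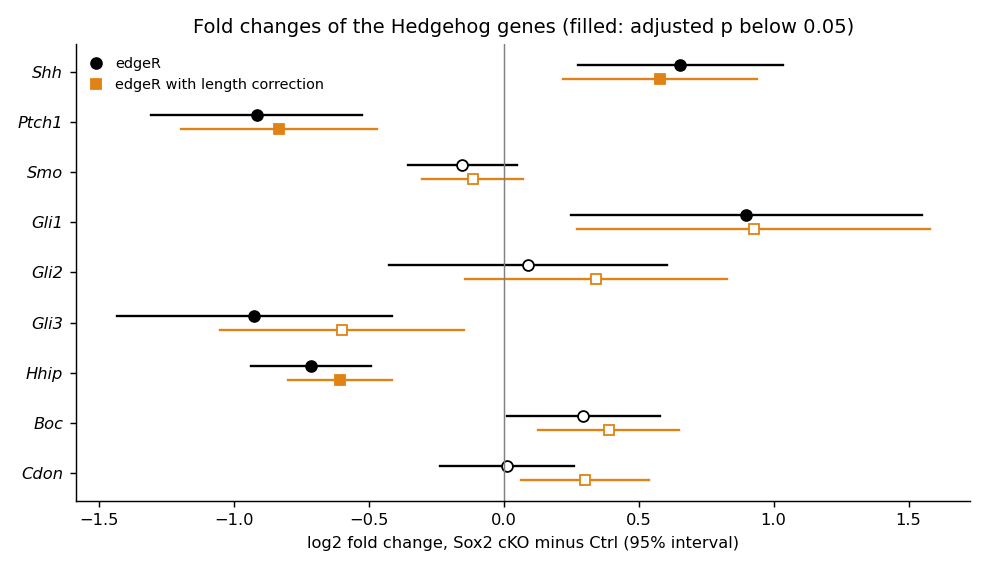
Log2 fold change of each Hedgehog gene (horizontal axis, Sox2 cKO minus Ctrl) with its 95% interval, from edgeR (black circles) and from edgeR with the length correction (orange squares); filled symbols have an adjusted p below 0.05. The largest shifts with the correction are those of the long genes Gli3, Cdon and Gli2, with Gli3 moving from -0.93 to -0.60.

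By median FPKM over the 6 libraries the order of the 9 genes was Ptch1 (15.8), Smo (9.62), Boc (4.65), Hhip (4.18), Cdon (2.14), Shh (1.88), Gli1 (1.84), Gli2 (0.764) and Gli3 (0.712). Between neighbours in this order, the ranges over the libraries separated Smo from Boc and Hhip from Cdon. All other neighbours overlapped. This order pools both groups and does not hold within each. In Ctrl, Hhip (4.87 to 5.41 FPKM) lay wholly above Boc (3.73 to 4.61 FPKM), and the mean of Gli3, 1.05 FPKM, was above that of Gli2, 0.780 FPKM, with overlapping ranges. In Sox2 cKO, the means of Shh (2.27 FPKM) and Gli1 (2.25 FPKM) were above that of Cdon (2.18 FPKM), also with overlapping ranges. In Ctrl, Gli1 ranged from 0.546 to 1.69 FPKM, the widest relative range of the 9.

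Ratios of genes within a library do not depend on how the library is scaled, and 4 were tested. The log2 ratio of Gli1 to Ptch1 FPKM was -3.39, -4.49 and -5.17 in Ctrl, against -1.86, -2.65 and -2.67 in Sox2 cKO. Both genes are targets of the pathway, and their ratio was higher in every Sox2 cKO library than in any Ctrl library. The group means differed by 1.96 on the log2 scale, a 3.88-fold higher ratio in Sox2 cKO. For Gli1 to Gli3, activator to repressor, the means were 0.01 ± 1.28 in Ctrl and 1.92 ± 0.29 in Sox2 cKO (SD, n = 3 each), a difference of 1.91. For Shh to Ptch1, ligand to receptor, they were -3.96 ± 0.52 and -2.37 ± 0.30, a difference of 1.59. Neither of these ratios overlapped between the groups. In all 3 ratios so far, a gene higher in every Sox2 cKO library is divided by one lower in every Sox2 cKO library. Their separation, and the exact p that follows from it, restate the values of the single genes and are no further evidence. The ratio of Gli1 to Gli2 overlapped and differed by 0.97. An exact two-sided permutation test gave p = 0.1 for the 3 ratios that did not overlap, the smallest that 3 mice against 3 allow, and p = 0.2 for Gli1 to Gli2. Adjusted over the 4 ratios these exact p-values were 0.133 and 0.2, so none passed the threshold, and none could have. Without Ctrl library 2 the differences were 2.44 for Gli1 to Ptch1, 2.48 for Gli1 to Gli3 and 1.86 for Shh to Ptch1. Without Ctrl library 6 they were smaller, at 1.55, 1.22 and 1.56, and that of Gli1 to Gli2 was 0.37. With the length correction the differences were 1.90 for Gli1 to Ptch1, 1.63 for Gli1 to Gli3 and 1.42 for Shh to Ptch1. These 3 ratios still did not overlap. The ratio of Gli1 to Gli2 then differed by 0.75 and overlapped (p = 0.4, exact permutation test).

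**Figure D3:**
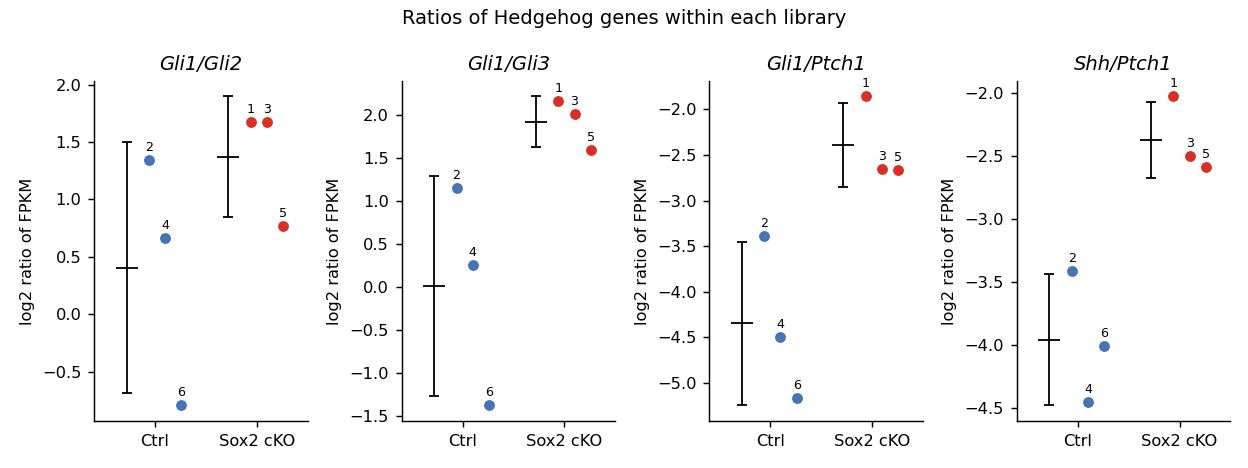
Log2 ratio of the FPKM of 2 Hedgehog genes within each library (vertical axes, each with its own range) in Ctrl (blue) and Sox2 cKO (red), with library numbers and, in black, the mean ± SD of 3 libraries. Sox2 cKO libraries lie above all Ctrl libraries for Gli1/Gli3, Gli1/Ptch1 and Shh/Ptch1, and Ctrl library 2 is the nearest of the Ctrl libraries to them in each. This separation follows from that of the single genes in each pair.

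The place of Ctrl library 2 was the same in all 5 called Hedgehog genes, where it was the Ctrl library nearest to Sox2 cKO. It held this place in 89.6% of all 3970 genes called. Without it, edgeR called the same 5 genes with larger fold changes. Leaving out other libraries ended calls. Without Ctrl library 4 or without Sox2 cKO library 1, edgeR called 0 of the 9 genes, although 6 had an unadjusted p below 0.05 in either fit and DESeq2 called 4 in either (Ptch1, Hhip and Gli3 in both, with Gli1 in the first and Boc in the second). In those fits edgeR called 26 and 8 of all genes tested, respectively. Without Ctrl library 6 or without Sox2 cKO library 3 it called Ptch1 and Hhip, and without Sox2 cKO library 5 it called these with Gli3 and Shh. Under DESeq2, Ptch1 and Hhip were called in all 6 such fits. DESeq2 called Gli3 in 5 of the 6, Gli1 in 3 and Shh in 1, while all 6 libraries together gave calls for all 5 genes.

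**Figure D4:**
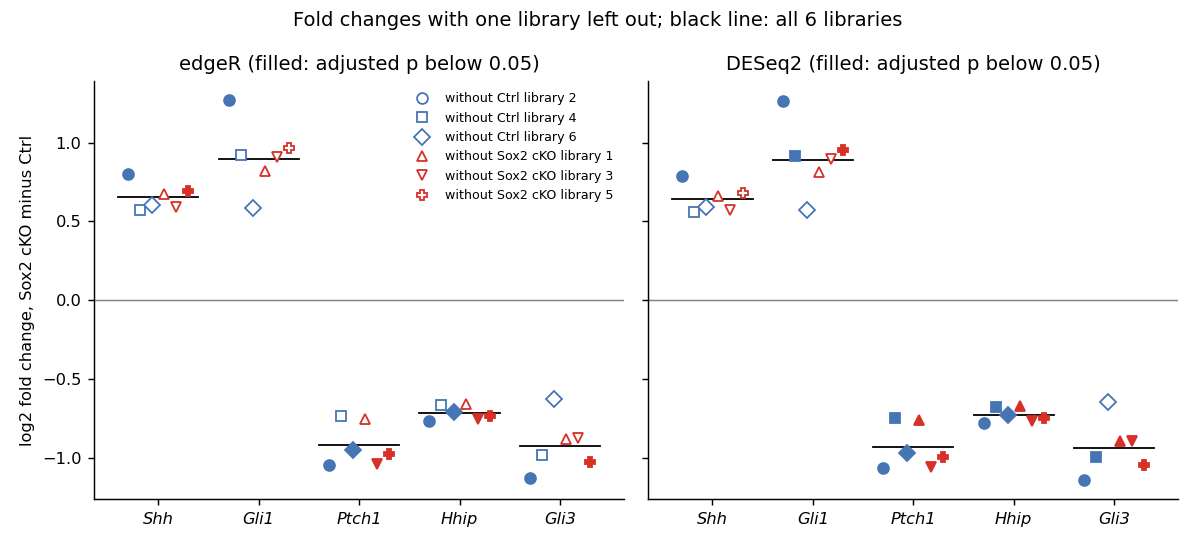
Log2 fold change (vertical axis, Sox2 cKO minus Ctrl) of the 5 called Hedgehog genes when each library is left out, in edgeR (left) and DESeq2 (right); filled symbols have an adjusted p below 0.05 and black lines mark the fit of all 6 libraries. The direction of each gene was the same in all 12 fits, and Gli1 ranged from 0.57 without Ctrl library 6 in DESeq2 to 1.27 without Ctrl library 2 in edgeR.

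Other genes of the pathway were taken from lists by role, also chosen with earlier results of these data known. The lists held 49 genes beside the 9, of which 48 passed the filter. Of the 48, 9 were called lower and 2 higher, where 12.4% and 12.2% of all genes tested were, with a median log2 fold change of -0.11 beside 0.02 over all genes tested. With the length correction, 6 were called lower and 0 higher by edgeR, where 6.99% and 6.08% of all genes were, and the median was -0.02 beside 0.00. No overlap between the groups in CPM was seen for 19 in the lower and 4 in the higher direction, where 22.1% and 22.6% of all genes tested did not overlap. Among the 9 Hedgehog genes these numbers were 3 and 2, the same genes that were called.

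None of the 5 genes that lipid-modify, release or carry the ligand (Hhat, Disp1, Scube1, Scube2 and Scube3) was called by edgeR, with log2 fold changes between -0.30 and 0.12. Of the 15 genes of signal transduction, 3 were called lower and 0 higher, where 12.4% and 12.2% of all genes tested were. Log2 fold changes were below 0 for 12 of the 15, with a median of -0.13, or -0.02 with the length correction. In CPM, 8 did not overlap in the lower and 0 in the higher direction, where 22.1% and 22.6% of all genes tested did not. Gsk3b, a kinase that marks full-length GLI proteins for processing, had a log2 fold change of -0.72 (adjusted p = 0.015, edgeR). Gpr161, a ciliary receptor that keeps the pathway off, had one of -0.65 (adjusted p = 0.029), and Btrc, a ubiquitin ligase subunit that recognizes the marked GLI proteins, had one of -0.28 (adjusted p = 0.036). With the length correction Btrc was no longer called (adjusted p = 0.58), whereas Gsk3b and Gpr161 were (adjusted p = 0.034 and 0.037). Sufu, which holds GLI proteins in the cytoplasm, was not called and had a log2 fold change of -0.11.

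Of the 13 target genes that passed the filter, 5 were called lower and 2 higher, where 12.4% and 12.2% of all genes tested were. Ptch1, Hhip and Gli1 are among these called targets and were already counted with the Hedgehog genes. After the length correction the same 5 were called lower (Ptch1, Hhip, Ccnd1, Ccnd2 and Nkx6-1) and 0 higher by edgeR. The shares of all genes were then 6.99% and 6.08%. Gli1 and Rab34 were at adjusted p = 0.062 and 0.18 in that fit of edgeR. Beside Ptch1, Hhip and Gli1, the cell cycle gene Ccnd2 was lower, at 6.04, 7.66 and 7.93 FPKM in Ctrl libraries 2, 4 and 6 and at 3.80, 4.24 and 5.16 FPKM in Sox2 cKO libraries 1, 3 and 5, with a log2 fold change of -0.81 (adjusted p = 0.013, edgeR). The groups did not overlap. The 3 other called targets fall outside the rule for named genes and were named after their values were seen. They were Nkx6-1, a ventral patterning factor (-0.57), Ccnd1, a cyclin (-0.34), and Rab34, a gene of cilium formation (0.49), with adjusted p = 0.038, 0.026 and 0.044 in edgeR. Foxa2, the floor plate factor, was under the filter, at 0 to 2 counts per library. In the list of genes of the primary cilium, 3 of 14 were called lower and 1 higher, where 12.4% and 12.2% of all genes tested were. Log2 fold changes were below 0 for 10 of the 14, with a median of -0.14, or -0.01 with the length correction. In CPM, 6 did not overlap in the lower and 3 in the higher direction, where 22.1% and 22.6% of all genes tested did not. Kif3a, a subunit of the motor that builds the cilium, had a log2 fold change of -0.44, Ift172 had one of -0.42 and Dync2h1, the return motor, had one of -0.35. Ift20 was higher at 0.39. Kif3a alone of these 4 stayed called with the length correction.

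**Figure D5:**
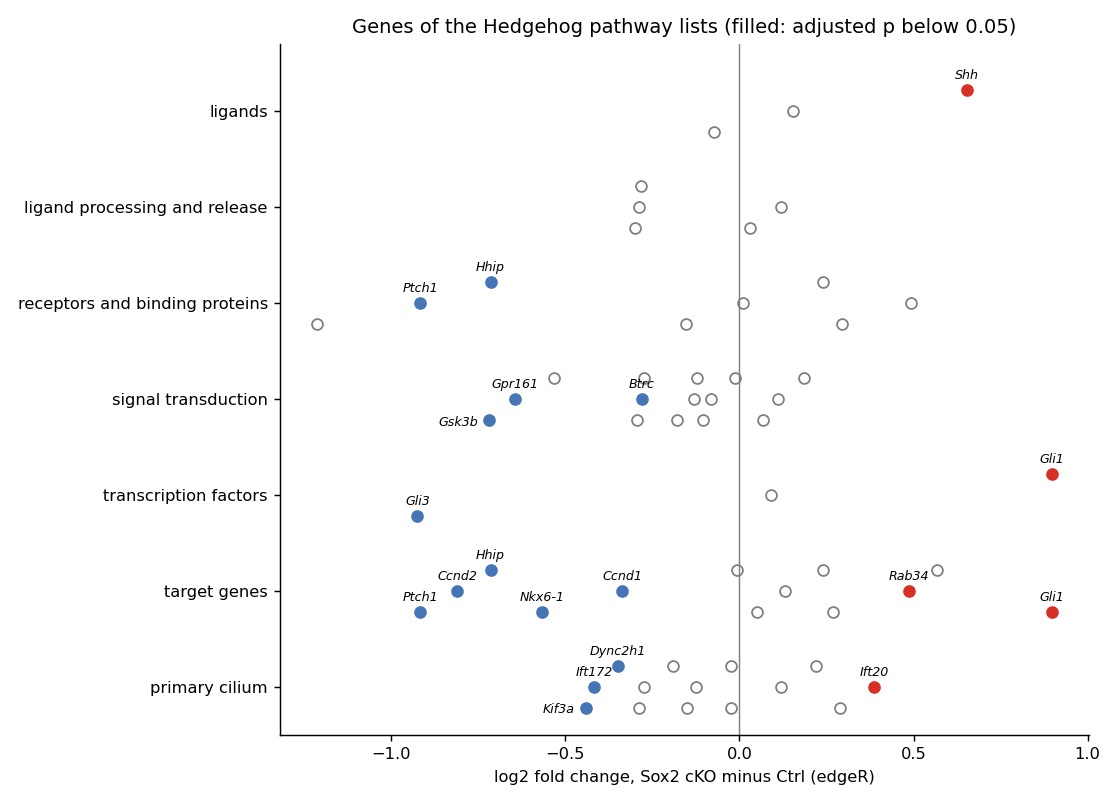
Log2 fold change (horizontal axis, Sox2 cKO minus Ctrl, edgeR) of each tested gene in 7 lists of the Hedgehog pathway, with called genes filled and named, in blue where lower and in red where higher; genes in more than 1 list appear in each. Of the 57 genes tested, which include the 9 Hedgehog genes, 12 were called lower and 4 higher, where 12.4% and 12.2% of all genes tested were. Transcription factors and targets hold called genes on both sides of 0 in this fit, whereas with the length correction 0 transcription factors were called and targets were called lower only.

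Markers of the cell types in the tissue were summed in each library. The summed FPKM of 11 astrocyte markers was 2425 to 2775 in Ctrl and 2145 to 2321 in Sox2 cKO libraries. Of them 5 were called lower and 1 higher by edgeR, where 12.4% and 12.2% of all genes tested were. With the length correction 2 were called lower and 0 higher, where 6.99% and 6.08% of all genes were. Gfap went from a mean of 1032 to 513 FPKM, and Aqp4, Aldh1l1, Slc1a2 and Slc1a3 were the other markers called lower. Without Gfap the other 10 markers summed to 1465 to 1701 in Ctrl and 1683 to 1722 in Sox2 cKO. Of these 10, 3 had log2 fold changes above 0 and 7 below. That sum includes S100b, the marker called higher, which went from a mean of 376 to 654 FPKM. Oligodendrocyte precursor markers summed to 27.4 to 30.6 in Ctrl and 18.4 to 25.2 in Sox2 cKO libraries. Of these markers 4 of 5 were called lower, where 12.4% of all genes tested were. With the length correction 1 of the 5, Gpr17, was still called lower, where 6.99% of all genes were. In each list below, edgeR called 0 or 1 marker, where 12.4% of all genes tested were called lower and 12.2% higher. The 6 endothelial markers summed to 57.1 to 69.2 in Ctrl and 87.0 to 142 in Sox2 cKO, with 1 called higher, Ly6c1. Without Ly6c1 the sums overlapped, at 31.8 to 36.4 and 34.0 to 61.3, and of the other 5 markers 3 had log2 fold changes above 0 and 2 below. The 6 markers of pericytes and smooth muscle summed to 61.8 to 84.0 and 89.1 to 124, with 1 called higher, Kcnj8. Without Kcnj8 the sums were 60.5 to 82.9 and 86.9 to 121, with 3 of the other 5 markers above 0 and 2 below. These sums without a marker were added after the values were seen. Their part in the fall of Ptch1, Hhip and Gli3 or in the rise of Gli1 was not tested. For neurons, a source of Shh in the adult, 7 markers summed to 2509 to 2695 in Ctrl and 2722 to 2809 in Sox2 cKO libraries, with 1 called higher. The 6 motor neuron markers summed to 114 to 122 and 114 to 124, with 1 called lower. For microglia, 0 of 6 markers were called by edgeR, and sums were 98.9 to 112 in Ctrl and 100.3 to 157 in Sox2 cKO. Ependymal markers summed to 28.8 to 32.6 in Ctrl and 28.3 to 33.3 in Sox2 cKO, with 1 of 6 called lower. Oligodendrocyte markers summed to 7592 to 8634 and 8010 to 8962 with 0 of 7 called, meningeal fibroblast markers to 46.0 to 132 and 113 to 158 with 0 of 6 called, and Schwann cell markers to 12.6 to 31.2 and 23.0 to 35.1 with 0 of 6 called. No marker of these lists was at 0 in a library. The tissue label was met by 7 Hox genes of the spinal cord, which summed to 217 to 256 in Ctrl and 249 to 266 in Sox2 cKO, with 1 called higher.

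The genes whose log2 CPM ran closest to each Hedgehog gene over the 6 libraries were sought among 12134 genes with a mean of at least 100 counts, by Pearson's r as a measure of likeness. The 6 points of each r fall into the same groups, and the values are a description with no test. Nearest to Shh were Vstm5 and Tra2b, to Gli1 Pcna and Nupr1, to Ptch1 Gna11 and Kat6b, to Hhip Faf2 and Atf7, and to Gli3 Foxk2 and Eif3h, all with r of at least 0.996. For Smo they were Ifit2 and Maml2, and for Boc Mcf2l and Mlst8, with r between 0.991 and 0.995. Gli2 and Cdon had the lowest likeness, with r of 0.968 to Rab4a and 0.953 to Gm28438 for Gli2, and 0.960 to Itgbl1 and 0.944 to Slc38a3 for Cdon. No other Hedgehog gene was among the nearest genes of any of the 9.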

How the data were processed

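Spinal cord RNA was sequenced from 3 mice of each group. Per the labels, the authors aligned to mm10 with STAR 2.5 and counted with HTSeq 0.6.1. They deposited raw read counts per gene. The authors also deposited FPKM, made from those counts and gene length. Columns were grouped by the mouse numbers of the study. The authors' group means were used only to check this, and 1999 of 1999 genes matched, against 0 with groups exchanged. Columns of the authors' own fold changes and p-values were not used, and 0 other columns of per-sample values remained. Symbols came from GENCODE M21, and 34490 of 35275 identifiers matched.

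The main test used edgeR 4.0.16 in R 4.3.3 (filterByExpr, TMM, quasi-likelihood, Benjamini-Hochberg adjustment). The standard error was taken from the fold change and the F statistic. The biological coefficient of variation was 0.119. Alternatives were DESeq2 1.42.0, other normalizations and filters, limma 3.58.1 on log2 FPKM, a lowess correction for length (span 0.3), and each library left out in turn. The fits were tested on simulated data. Site positions were checked against promoter sequences of RefSeq (GRCm38.p6), where 108 of 108 sites were found at the position used. The rule for named genes took Sox2, the 9 genes, up to 4 called genes with the largest fold change in each list, genes under the filter, and 2 genes of closest pattern. The genes, lists and tests were chosen with earlier results of these data known. Counts limit the precision of low genes, and p-values cover the spread between these mice.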

Additional observations from a re-analysis of the deposited data

How the results depend on the processing

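The directions of Shh, Ptch1, Gli1, Gli3, Hhip, Boc and Smo were the same in every alternative run. With the length correction 3 of the 9 genes were called (1 higher) and 9 of the pathway genes, where 16 were called without it. With limma on log2(FPKM + 0.1), 3 were called, 1 of them higher. With limma on log2(FPKM + 1) without a filter, 0 of the 9 genes, 0 lower and 0 higher, and 0 pathway genes were called, although 6 of the 9 had an unadjusted p below 0.05 and limma called 7 genes in all. Sox2 was then at -2.11 (adjusted p = 0.057, limma). The cause was not tested. The other non-exclusion fits called 4 or 5 of the 9 genes.

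When each library was left out in turn, edgeR called 0 to 5 of the 9 genes (0 to 3 lower, 0 to 2 higher) and 0 to 24 pathway genes. DESeq2 called 2 to 5 (2 to 3 lower, 0 to 2 higher) and 8 to 23, and edgeR with the length correction called 0 to 6 (0 to 3 lower, 0 to 3 higher) and 0 to 16. Calls over all genes moved widely too. In the same fits edgeR called 8 to 6119 genes, DESeq2 1981 to 5624, and edgeR with the length correction 10 to 4465. The 4 ratios kept their direction. Gli2, never called, ranged from -0.18 to 0.27 in edgeR and from -0.20 to 0.26 in DESeq2, and reached 0.51 with the length correction. Cdon, never called, was at -0.0024 in DESeq2 and at -0.0002 with RLE size factors, and ranged from -0.04 to 0.11 in edgeR and from -0.055 to 0.10 in DESeq2 when a library was left out, reaching 0.36 with the length correction. Over all genes, the split of calls moved from 2008 lower and 1962 higher to 915 lower and 2670 higher with limma on log2(FPKM + 1). No paired analysis was possible because the deposited columns carry no replicate numbers of the labels. With 3 mice in a group, counts of 44 to 231 reads for Gli1 and 72 to 188 for Shh limit what can be called.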

Other observations

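Among the genes of the pathway lists that edgeR did not call, Lrp2, a large endocytic receptor that binds Shh, had the largest fold change, and it was named after its values were seen. It held 30, 49 and 96 counts in Ctrl, against 31, 29 and 29 in Sox2 cKO. The groups overlapped at Ctrl library 2, and the log2 fold change was -1.21 (adjusted p = 0.056, edgeR). With the length correction it was -0.70 (adjusted p = 0.24, edgeR), whereas DESeq2 called the gene lower (adjusted p = 0.023). Gas1, a co-receptor that acts beside Boc and Cdon, stood at 4.06, 3.44 and 2.21 FPKM in Ctrl, against 5.31, 5.47 and 3.85 FPKM in Sox2 cKO, with a log2 fold change of 0.49 (adjusted p = 0.094, edgeR). Its groups overlapped at Ctrl library 2.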
